A study of Mus musculus with 4 samples.

Results

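The genes described here encode the constitutive proteasome and its regulators. They were taken by symbol: every gene named Psma, Psmb, Psmc, Psmd, Psme or Psmf followed by a digit, without the immunoproteasome genes Psmb8, Psmb9 and Psmb10 and without pseudogenes. The rule found 43 of the 19938 genes that have a probe set of their own. Of these, 41 encode subunits or regulators. The other 2, Psmc3ip, whose product binds Psmc3 and acts in meiotic recombination, and Psme3ip1, whose product binds Psme3, match by name alone and are left out of the counts below.

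Microglia are the macrophages that live in the brain; their RNA, from mouse cultures, was hybridised to Affymetrix Mouse Gene 1.0 ST arrays, which probe each transcript along its length. There were 4 arrays, 1 for each group: cells labelled Bid-/- (KO) given lipopolysaccharide (LPS) for 3 h, wild-type (WT) cells given LPS for 3 h, untreated cells labelled Bid-/-, and untreated WT cells. Bid, a member of the Bcl-2 family, is a pro-apoptotic protein, and LPS is a bacterial cell wall component sensed through TLR4. WT cells are labelled C57Bl. For the cells labelled Bid-/- the strain is not given, nor for any group the LPS dose or the number of animals and cultures. By its title and labels, the study set the microglial response to LPS with Bid against that without it.

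The proteasome is the large protease that degrades ubiquitin-tagged proteins. Its barrel, the 20S core, is built from alpha subunits (Psma), which form the outer rings and gate, and beta subunits (Psmb), of which 3 carry the active sites. The 19S particle binds the barrel's ends: its base holds an ATPase ring (Psmc) that unfolds substrates, and its lid removes ubiquitin. Other caps, encoded by Psme genes, open the gate without ubiquitin. In macrophages the proteasome degrades the NF-kB inhibitor IkBa after TLR4 stimulation and makes peptides for MHC class I.

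Values are log2 expression, 1 probe set per gene, so a difference of 1 is a doubling. A gene was compared where the higher array reached 4.26, the median probe set; this floor was passed by 39 of the 41 genes. Psma8, the testis alpha subunit, read 3.53 and 4.04 on the arrays labelled Bid-/- with and without LPS and 3.86 and 4.11 on the WT arrays with and without LPS. Psmb11, the thymus beta subunit, read 4.05 and 3.67 on the arrays labelled Bid-/- with and without LPS and 3.99 and 3.57 on the WT arrays with and without LPS. Both stayed under the floor on all 4 arrays. Each group has 1 array, so a difference between arrays stands without replicates; counts are of genes at least 0.322 apart on the log2 scale or, at the stricter threshold, 1.5-fold apart.

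Of the microglial markers listed, 9 had a value. C1qa, a complement chain, ran from 11.21 to 11.64 over the 4 arrays, while P2ry12, a homeostatic microglia receptor, was at most 4.38 and was under the floor on both LPS arrays. The difference of LPS change (Bid-/- minus WT) over the 9 had a median of -0.06, with 5 below 0 and 4 above. It ran from -1.02 for Trem2, a lipid-sensing receptor, below every proteasome gene compared, to 0.31 for Ptprc, the leukocyte phosphatase CD45. Trem2 read 7.43 and 8.34 with and without LPS on the arrays labelled Bid-/-, and 8.29 and 8.18 on the WT arrays. Bid itself read 5.97 and 5.02 on the LPS arrays labelled Bid-/- and WT and 5.53 and 5.69 on the untreated arrays labelled Bid-/- and WT. The level on the LPS array labelled Bid-/- goes against that label. The position of its probes relative to the deletion is unknown here, so they may check nothing, and genotypes are given as labelled. All 6 fibroblast and mural genes listed were past the floor, and their summed level, on the log2 scale, was 9.06 and 9.26 on the LPS arrays labelled Bid-/- and WT and 9.40 and 8.28 on the untreated arrays labelled Bid-/- and WT. Cultures of different makeup cannot be told apart from cells of different genotype in any comparison between labels, nor fewer cells of a type from less RNA per cell.

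On the LPS arrays the genes of the 20S core stood apart from genes at large, as did ribosomal protein and oxidative phosphorylation genes. All 14 read highest on the WT LPS array of the 4, and 13 read lowest on the LPS array labelled Bid-/-. Over 11326 genes, 25.4% read highest on the WT LPS array and 31.2% lowest on the LPS array labelled Bid-/-; of 54 cytosolic ribosomal protein genes 92.6% and 90.7% did so, and of 77 oxidative phosphorylation genes 81.8% and 93.5%. Of the 17 subunits of the 19S particle, 6 read highest on the WT LPS array and 8 lowest on the LPS array labelled Bid-/-. With LPS, the median difference between the labels (Bid-/- minus WT) was -0.62 for the 20S core and -0.16 for the 19S particle, against 0.01 over 11044 genes. Without LPS the medians were -0.08 and -0.07, again against 0.01 over all genes.

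**Figure D1:**
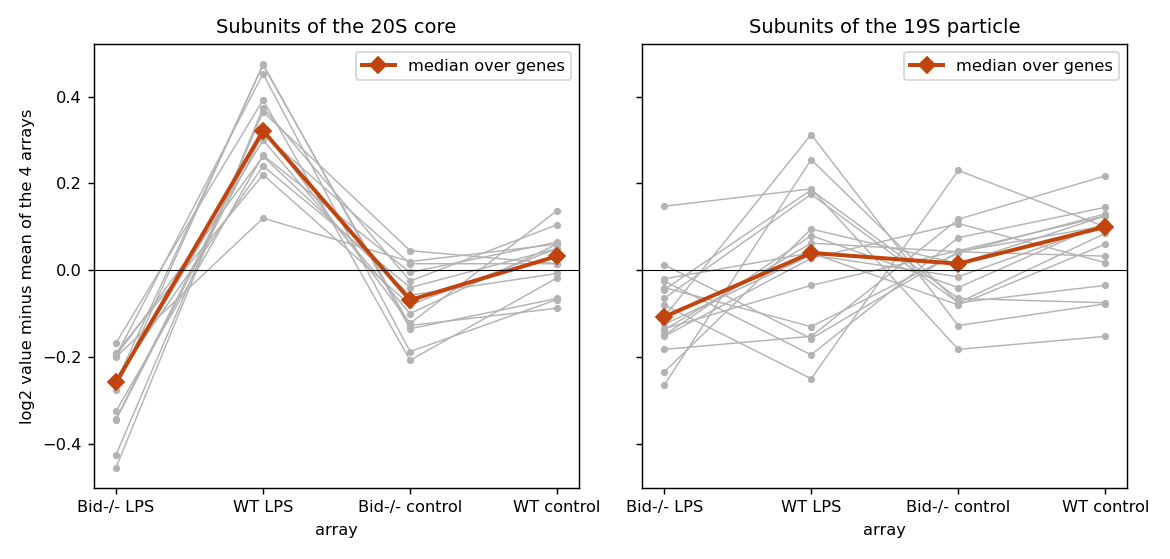
Log2 values of 14 subunits of the 20S core (left) and 17 of the 19S particle (right) on the 4 arrays, each gene minus its own mean over the arrays (grey lines; orange, median over genes). The 20S median is 0.32 on the WT LPS array and -0.26 on the LPS array labelled Bid-/-; the 19S medians lie between -0.11 and 0.10.

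Promoters of members from both ends of the difference of LPS change are shown because members that move together invite a look at shared sequence. Each line gives the 120 bases before the start of the gene, 5′ to 3′ on the gene's strand, from RefSeq (build GRCm38.p6), with matches on either strand to TGANNNNGC, CCAAT or GGGCGG in capitals. The first of these is a loose form of the core of the antioxidant response element, to which Nfe2l1 and Nfe2l2 bind. CCAAT is the box bound by NF-Y, and GGGCGG is the GC box bound by Sp factors. The 3 genes of the core whose LPS change was lowest in cells labelled Bid-/- relative to WT, among those with a single promoter in the table, were Psmb3 at chr11:97703314-97703433 (plus strand), Psmb6 at chr11:70525237-70525356 (plus strand) and Psma2 at chr13:14613122-14613241 (plus strand). Psmb1 (-0.82) and Psmb2 (-0.68) matched no promoter. The 2 members with the highest difference of LPS change, again among those with a single promoter, lie outside the core. They were Psme4 (0.53) at chr11:30771655-30771774 (plus strand) and Psmc4 (0.24) at chr7:28050093-28050212 (minus strand).
Psmb3: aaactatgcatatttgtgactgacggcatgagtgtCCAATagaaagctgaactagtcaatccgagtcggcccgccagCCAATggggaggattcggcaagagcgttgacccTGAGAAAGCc
Psmb6: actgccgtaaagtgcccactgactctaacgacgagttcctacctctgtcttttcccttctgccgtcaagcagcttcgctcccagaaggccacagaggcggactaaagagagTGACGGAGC
Psma2: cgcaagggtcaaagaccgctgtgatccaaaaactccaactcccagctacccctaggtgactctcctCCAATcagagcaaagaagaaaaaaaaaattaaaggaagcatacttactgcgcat
Psme4: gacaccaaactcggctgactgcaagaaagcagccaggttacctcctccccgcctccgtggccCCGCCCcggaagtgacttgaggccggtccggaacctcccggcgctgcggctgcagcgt
Psmc4: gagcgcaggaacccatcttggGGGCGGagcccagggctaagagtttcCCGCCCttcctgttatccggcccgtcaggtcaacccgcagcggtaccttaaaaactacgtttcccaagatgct
These were chosen after the values were seen.

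Of the 41 genes, 34 matched the promoter table, with 37 windows. In the 250 bases before the start, GGGCGG was found in 56.8% of these windows and in 32.74% of all 32851 windows. CCAAT was found in 35.1% against 33.85%, and TGANNNNGC in 37.8% against 35.2%. TGACTCAGC, a more specific form of the same length whose every match is also a TGANNNNGC match, was found in 0 of the 37 windows and in 0.39% of all. GGGCGG was in the windows of 5 of 11 genes of the 20S core and 9 of 14 of the 19S particle, and CCAAT in 6 of 11 and 4 of 14. A match describes letters and is not a site, and no match says only that these letters are not in the window.

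Among the catalytic subunits, Psmb6, which carries the caspase-like site, read 9.39 with LPS and 9.52 without on the arrays labelled Bid-/-, and 10.12 and 9.56 on the WT arrays. Psmb5, the chymotrypsin-like subunit and target of bortezomib, read 8.30 and 8.62 with and without LPS on the arrays labelled Bid-/-, and 8.89 and 8.69 on the WT arrays. Psmb7, the trypsin-like subunit, read 9.56 and 9.72 with and without LPS on the arrays labelled Bid-/-, and 10.12 and 9.88 on the WT arrays. For all 3, LPS and control differed in opposite directions in the labels, with LPS the lower value on the arrays labelled Bid-/- and the higher in WT.

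The structural beta subunits, which complete the inner rings, showed the widest separation by the median over genes. Psmb1 read 7.11 with LPS and 7.58 without on the arrays labelled Bid-/-, and 7.90 and 7.55 on the WT arrays, a difference of LPS change (the change on the arrays labelled Bid-/- less the WT one) of -0.82, the lowest of all 39 genes. Psmb3 read 8.64 and 9.07 with and without LPS on the arrays labelled Bid-/-, and 9.47 and 9.20 on the WT arrays. Psmb2 read 8.71 and 8.85 with and without LPS on the arrays labelled Bid-/-, and 9.46 and 8.92 on the WT arrays. In each of these genes the 2 untreated arrays lay closer together than the 2 LPS arrays. Psmb4 differed in that its LPS change on the arrays labelled Bid-/- was near 0: it read 8.91 and 8.92 with and without LPS there, and 9.56 and 9.04 on the WT arrays.

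In the alpha ring the difference of LPS change had a median of -0.40, beside -0.69 for the structural and -0.52 for the catalytic beta subunits, and ran from -0.66 for Psma2 to -0.28 for Psma1 and Psma3. Psma2 read 8.67 and 9.03 with and without LPS on the arrays labelled Bid-/-, and 9.33 and 9.03 on the WT arrays, so that the untreated arrays were equal. Psma7 read 8.18 and 8.40 with and without LPS on the arrays labelled Bid-/-, and 8.85 and 8.66 on the WT arrays, and its untreated difference of -0.26 was the lowest among the 39 genes. Psma6 was the only gene of the core above 0 for LPS in both labels, reading 9.58 and 9.54 with and without LPS on the arrays labelled Bid-/-, and 10.14 and 9.73 on the WT arrays. Psma1, Psma3, Psma4 and Psma5 differed with LPS by -0.22 to -0.11 on the arrays labelled Bid-/- and by 0.06 to 0.27 in WT.

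**Figure D2:**
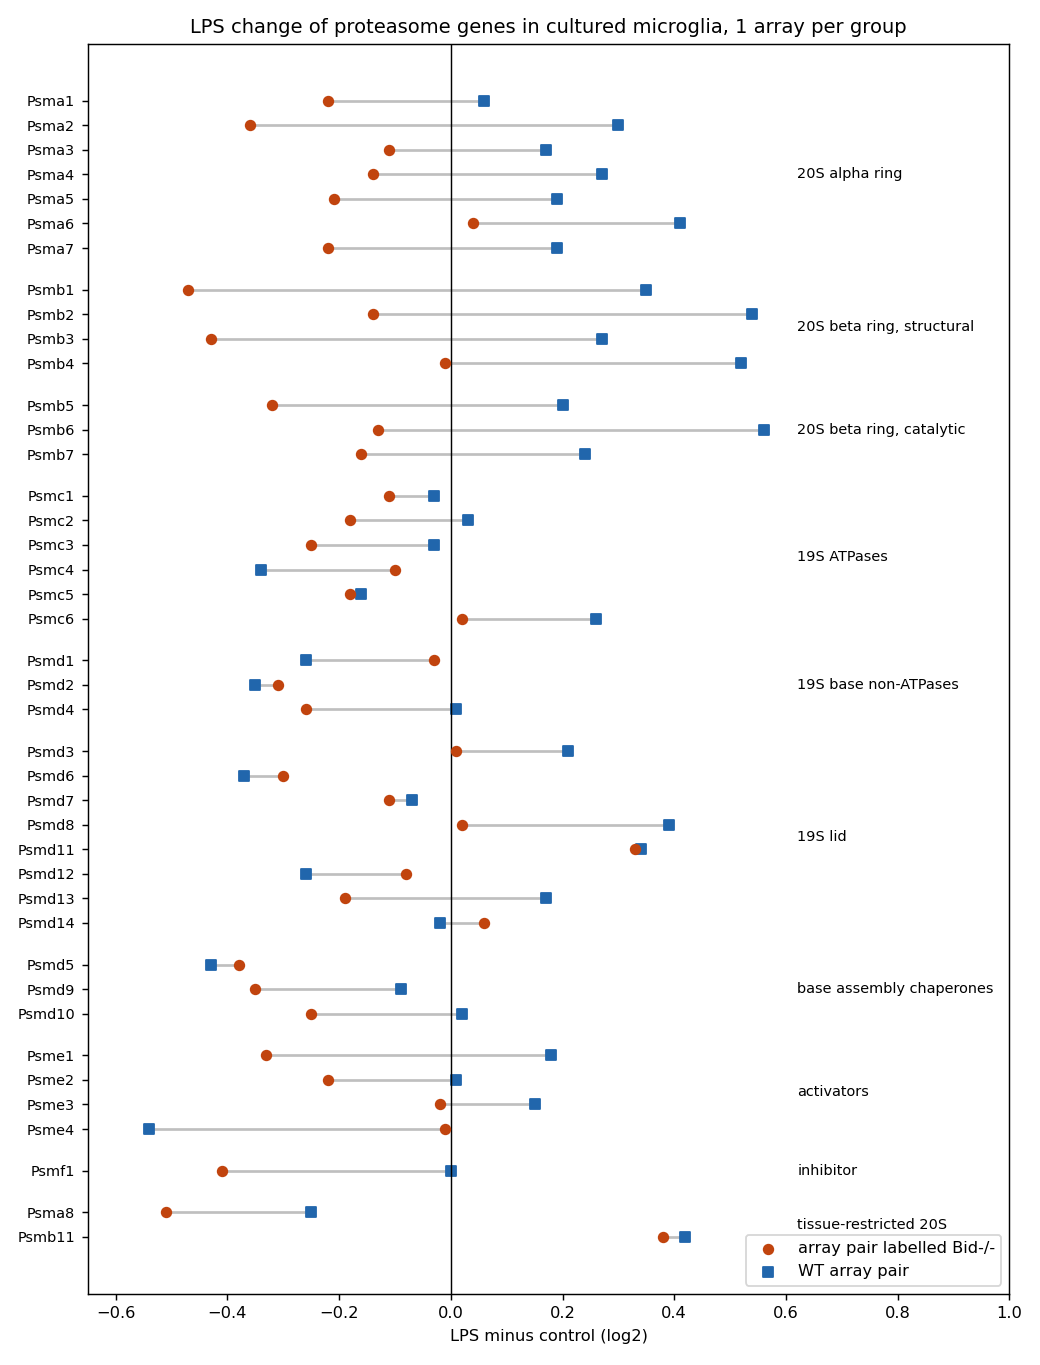
LPS minus control on the log2 scale for each of the 41 genes, grouped by role (orange circles, arrays labelled Bid-/-; blue squares, WT arrays; grey lines join a gene's values). All 14 genes of the 20S core have the WT value to the right of 0 and of the value labelled Bid-/-, while Psmd2, Psmd6, Psmd11 and Psmd5 have nearly the same value in both labels. Psma8 and Psmb11 are under the floor.

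The genes of the 19S particle had no common direction with LPS in WT, where 7 of 17 were above 0 and 10 below. On the arrays labelled Bid-/-, 12 were below 0 with LPS, as were 60.1% of all genes. Between the labels 13 were below 0 with LPS and 13 without, where 47.8% and 45.8% of all genes were. In the ATPase ring, Psmc4 was among the genes with the highest difference of LPS change: it read 8.22 and 8.32 with and without LPS on the arrays labelled Bid-/-, and 8.05 and 8.39 on the WT arrays. The other 5 ATPase genes had differences of LPS change from -0.24 (Psmc6) to -0.02 (Psmc5). Of the scaffold subunits of the base, Psmd2 was lower with LPS in both, at 9.59 and 9.90 with and without LPS on the arrays labelled Bid-/-, and 9.42 and 9.77 on the WT arrays. Psmd1 read 9.46 and 9.49 with and without LPS on the arrays labelled Bid-/-, and 9.29 and 9.55 on the WT arrays. Psmd4, a ubiquitin receptor, was -0.26 with LPS on the arrays labelled Bid-/- and 0.01 in WT.

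In the lid, Psmd11 was higher with LPS in both labels by almost the same amount, reading 8.95 and 8.62 with and without LPS on the arrays labelled Bid-/-, and 8.99 and 8.65 on the WT arrays. Psmd6 was lower in both, at 8.83 and 9.13 with and without LPS on the arrays labelled Bid-/-, and 8.86 and 9.23 on the WT arrays. Psmd14, the deubiquitinase of the lid, differed with LPS by 0.06 on the arrays labelled Bid-/- and -0.02 in WT. Of the lid genes with Psm names, Psmd8 and Psmd13 were nearest to the 20S pattern, with differences of LPS change of -0.37 and -0.36. For Psmd3, Psmd7 and Psmd12 that difference lay between -0.20 and 0.18.

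Of the chaperones that assemble the base, Psmd5 had the lowest LPS change in both labels, reading 7.19 and 7.57 with and without LPS on the arrays labelled Bid-/-, and 7.18 and 7.61 on the WT arrays. Its mean LPS change was -0.405, the lowest of the 39 genes. Psmd9 and Psmd10 (gankyrin) differed with LPS by -0.35 and -0.25 on the arrays labelled Bid-/-, and by -0.09 and 0.02 in WT.

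The caps split. Psme4, the nuclear activator PA200, ran opposite to the 20S core: it read 8.16 and 8.17 with and without LPS on the arrays labelled Bid-/-, and 7.60 and 8.14 on the WT arrays, so that the WT LPS array was lowest. Psme1 and Psme2 encode the interferon-inducible cap PA28. Psme1 read 9.63 and 9.96 with and without LPS on the arrays labelled Bid-/-, and 10.08 and 9.90 on the WT arrays. Psme2 read 10.07 and 10.29 with and without LPS on the arrays labelled Bid-/-, and 10.42 and 10.41 on the WT arrays. Both were lowest on the LPS array labelled Bid-/-. Psme3, a nuclear cap of the same family, stayed between 8.36 and 8.53 over the 4 arrays. Psmf1, an inhibitor of the core in vitro, read 6.48 and 6.89 with and without LPS on the arrays labelled Bid-/-, and 6.63 on both WT arrays. Of the genes matched by name alone, Psmc3ip read 4.16 and 4.13 with and without LPS on the arrays labelled Bid-/-, and 4.34 and 4.44 on the WT arrays. Psme3ip1 read 6.62 and 6.60 with and without LPS on the arrays labelled Bid-/-, and 6.87 and 6.52 on the WT arrays.

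In cells labelled Bid-/-, 1 of 39 genes (Psmd11) was higher with LPS by 0.322 or more, where 14.0% of 10995 genes were, and 7 were lower by as much, where 27.7% were. The 7 were Psma2, Psmb1, Psmb3, Psmd5, Psmd9, Psme1 and Psmf1. The median over the 20S core was -0.185 and over the 19S particle -0.11, against -0.10 over all genes. The members' share of lower genes was under that of all genes, and the 20S median minus that of all genes was -0.085.

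In WT cells, 7 of 39 genes were higher with LPS by 0.322 or more, where 15.1% of 11129 genes were, and 5 were lower by as much, where 26.0% were. The 7 were Psma6, Psmb1, Psmb2, Psmb4, Psmb6, Psmd8 and Psmd11, and the 5 were Psmc4, Psmd2, Psmd5, Psmd6 and Psme4. Of the 14 genes of the 20S core, 14 were above 0, as were 44.0% of all genes. Of the ribosomal protein and oxidative phosphorylation genes, 94.4% and 83.1% were above 0. The 20S median was 0.27 and the 19S median -0.03, against -0.05 over all genes. At 1.5-fold, 0 of 39 genes passed in either direction in this or the preceding comparison, neither of which carries a test. The share of all genes past 1.5-fold is not given for these comparisons, so the 0 cannot be called few. Over all genes the LPS changes ran from -2.47 to 4.29 on the arrays labelled Bid-/- and from -2.7 to 4.47 in WT.

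A change shared by both labels can be asked of all 4 arrays together, with genotype and LPS as additive terms in limma; its error rests on 1 residual degree of freedom, the difference of LPS change. For LPS it called 1.68% of 11326 genes higher and 1.56% lower, and 0 of the 39 proteasome genes. At an unadjusted p under 0.05 the fit called 3258 of the 11326 genes for LPS and 1 of the 39, Psmd5. The mean LPS change of Psmd5 was -0.405 (SE 0.14, limma adjusted p = 0.161). For Psmd11, higher by 0.33 and 0.34, the limma adjusted p was 0.222 (SE 0.142). For genotype, limma called 0.00% of all genes and 0 of the 39. The count over all genes depended on the processing (40 after quantile normalization and 26 with noise inside the rounding). Without adjustment, at a limma p under 0.05, the genotype term called 709 of the 11326 genes and 0 of the 39. The fit's error grows with the difference of LPS change, so a gene such as Psmb1 (SE 0.247) had a wider error than Psmd2 (SE 0.132). Beside the 1 residual degree of freedom, the error draws on a variance that limma borrows across genes (3.074 prior degrees of freedom). The labels do not say whether the cultures were separate, and p-values here do not measure the spread between replicates.

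Between the labels without LPS, 0 of 39 genes were 0.322 or more apart in either direction, where 5.97% of 10909 genes were higher and 3.18% lower on the array labelled Bid-/-. Differences ran from -0.26 for Psma7 to 0.26 for Psmf1. Of the 14 genes of the core, 12 were below 0, with Psmb1 above it and Psma2 equal, where 45.8% of all genes, 74.1% of the ribosomal protein genes and 81.8% of the oxidative phosphorylation genes were below 0.

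Between the labels with LPS, 18 of 39 genes were lower by 0.322 or more under the label Bid-/-, where 16.9% of 11044 genes were, and 1, Psme4, was higher by as much, where 17.8% were. Of the 18, 13 belong to the 20S core, leaving out only Psma1 at -0.32. At 1.5-fold, 8 of 39 were lower, where 6.07% of all genes were. All 8 belong to the core: Psma2 (-0.66), Psma7 (-0.67), Psmb1 (-0.79), Psmb2 (-0.75), Psmb3 (-0.83), Psmb4 (-0.65), Psmb5 (-0.59) and Psmb6 (-0.73). The lower genes outside the core were Psmc3 (-0.33), Psmd8 (-0.42), Psmd13 (-0.52), Psme1 (-0.45) and Psme2 (-0.35). This comparison shares its LPS arrays with the changes above and was not tested.

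The difference of LPS change (Bid-/- minus WT) lay below 0 by 0.322 or more for 16 of 39 genes, as it did for 17.6% of 11326 genes, and above 0 by as much for Psme4 alone (0.53), as for 15.2% of all. At 1.5-fold it was lower for 5 of 39, where 6.06% of all genes were: Psma2, Psmb1, Psmb2, Psmb3 and Psmb6. Of the 14 genes of the core, 13 were above 0 in WT and below 0 on the arrays labelled Bid-/-, as were 3 of the 17 genes of the 19S particle and 16.9% of all genes. Across the 39 genes, which share 4 arrays, the LPS changes in the labels had a Pearson's r of 0.17 and a Spearman's rho of 0.16. All 11326 genes had 0.74 and 0.60. The SD of these changes across the 39 genes was 0.163 on the arrays labelled Bid-/- and 0.274 in WT. Over all genes it was 0.491 and 0.5, so the coefficients come from unlike ranges.

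**Figure D3:**
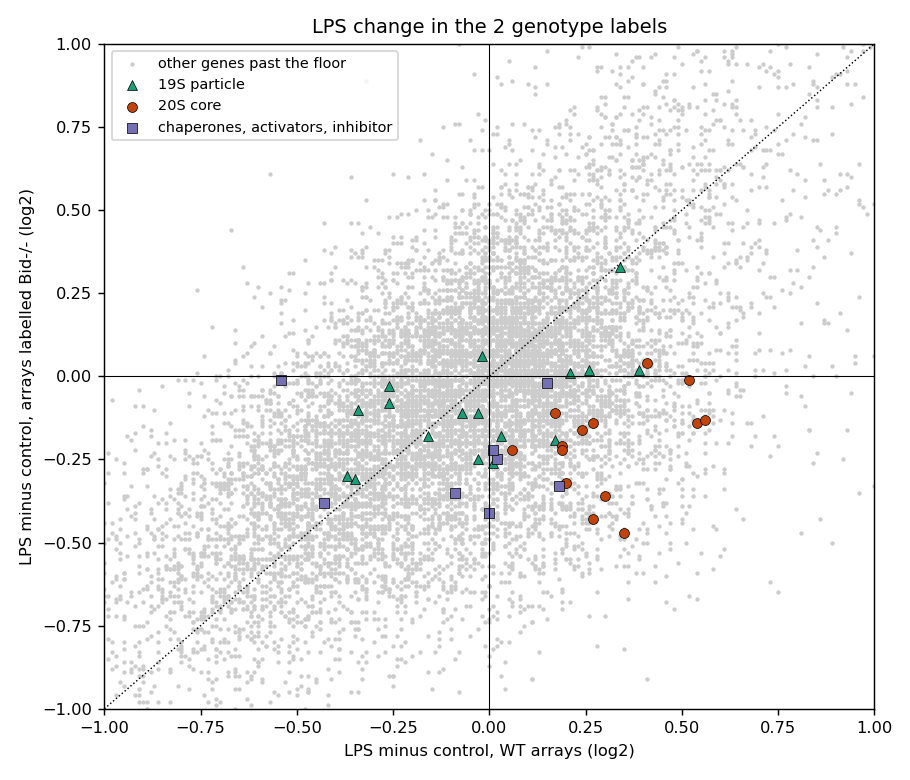
LPS change on the arrays labelled Bid-/- (vertical) against that on the WT arrays (horizontal), both log2, for the 39 proteasome genes past the floor and other genes (grey; those beyond 1 in either direction are not drawn, and the dotted line marks equal change). The 20S core (orange) lies right of 0 and, apart from Psma6 at 0.04, below 0 on the vertical axis.

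Other measurements moved with this pattern, and their part in it was not tested. Across 11321 genes the difference between labels with LPS had a Spearman's rho of 0.39 with gene span, the genomic length of the gene, and the difference of LPS change one of 0.34; across the 39 genes these were 0.27 and 0.26. The median span was 12 kb for the 20S core and 13.16 kb for the 19S particle, against 21.04 kb over all genes past the floor. The median difference of LPS change of the 20S core was -0.419 once trends with intensity and span were removed, and that of the 19S particle -0.056. The difference of LPS change was below 0 for all 6 fibroblast and mural genes listed (median -1.04). With LPS, 4 of them were below 0 and 2 above on the arrays labelled Bid-/- (median -0.265), and 6 were above 0 in WT (median 0.825). Between the labels with LPS (Bid-/- minus WT), 2 of them, Acta2 and Tagln, were at -0.90 and -1.43, lower than any gene of the core. The other 4 were above 0, and the median of the 6 was 0.17, where the core was at -0.62. Without LPS all 6 were above 0 (median 0.765), where the core was at -0.08.

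Ribosomal protein and oxidative phosphorylation genes gave values similar to those of the 20S core. The median difference of LPS change was -0.48 for 54 cytosolic ribosomal protein genes (median span 3.22 kb) and -0.58 for 77 oxidative phosphorylation genes (7.18 kb), beside -0.465 for the 20S core. With LPS the labels differed by -0.545 and -0.71 in these families, beside -0.62 for the core. The 19S particle (median span 13.16 kb) was at -0.04 for the difference of LPS change and at -0.16 between the labels with LPS. With mean level, the difference of LPS change had a Spearman's rho of 0.07 across 11326 genes and -0.12 across the 39. No test compared the families.

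**Figure D4:**
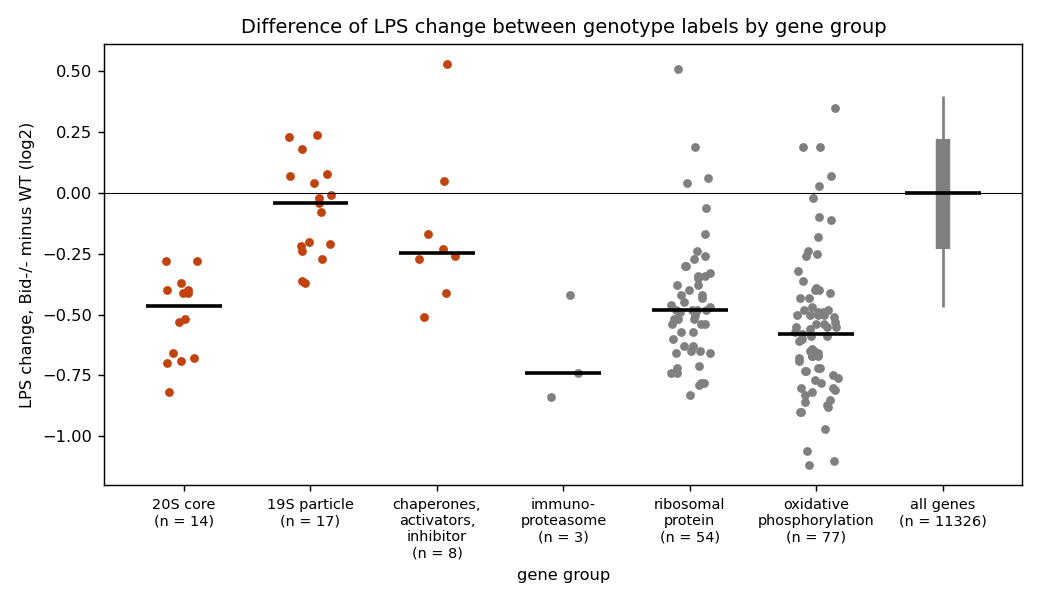
Difference of LPS change, Bid-/- minus WT (log2), 1 point per gene past the floor, black bars at group medians; for all 11326 genes the thick grey bar spans the middle 50% and the thin line the middle 80%. The 20S core median (-0.465) lies near those of ribosomal protein (-0.48) and oxidative phosphorylation genes (-0.58), and the 19S median (-0.04) near that of all genes (0.00).

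The immunoproteasome genes encode the subunits that replace the catalytic ones in immune cells. Psmb8, the counterpart of Psmb5, read 8.82 and 9.36 with and without LPS on the arrays labelled Bid-/-, and 9.38 and 9.18 on the WT arrays. Psmb9, the counterpart of Psmb6, read 8.76 and 9.25 with and without LPS on the arrays labelled Bid-/-, and 9.11 and 9.18 on the WT arrays. Psmb10, the counterpart of Psmb7, read 7.83 and 8.43 with and without LPS on the arrays labelled Bid-/-, and 8.48 and 8.24 on the WT arrays. All 3 read lowest on the LPS array labelled Bid-/-, with differences of LPS change of -0.74, -0.42 and -0.84.

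Of 16 listed genes for assembly factors and proteasome-bound proteins, 15 had a value, 1 was called higher for LPS by limma and 0 lower. The gene called was Zfand5, a proteasome-binding zinc finger protein, at 1.51 with LPS on the arrays labelled Bid-/- and 1.18 in WT (limma adjusted p = 0.0435). Txnl1, a thioredoxin-like protein of the 19S particle, was at 0.34 and 0.64, Uchl5, a deubiquitinase, at -0.40 and -0.29, and Zfand2a, a zinc finger protein that binds the proteasome under arsenite, at -0.14 and -0.59. Sem1, a lid subunit outside the Psm names, was at -0.17 and 0.35, a difference of LPS change of -0.52. It is not among the genes counted above for the 19S particle. Among the regulators of proteasome gene transcription 3 of 4 had a value and 0 were called. Nfe2l1, which induces proteasome genes when activity is short, was at -0.10 and -0.27 with LPS (arrays labelled Bid-/- and WT), its activating glycanase Ngly1 at -0.25 and -0.23, and the stress factor Nfe2l2 at 0.41 and 0.38. Of 15 genes for ubiquitin and shuttling 9 had a value and 0 were called, with Sqstm1, the autophagy receptor p62, at 0.35 and 0.32, the E1 enzyme Uba6 at 0.44 and 0.22, the segregase Vcp at -0.12 and -0.25, and the shuttle Ubqln4 at -0.11 and -0.12.

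Several of these genes have processed copies elsewhere in the genome, and 5 of the 41 have more than 1 probe set of their own. The 3 probe sets of Psma3 gave differences of LPS change from -0.32 to -0.27, the pair for Psmb3 -0.73 and -0.70, the pair for Psmc1 -0.16 and -0.08, and the pair for Psmd2 0.04 and 0.08. The pair for Psma5 gave -0.14 and -0.40, the -0.40 being that of the probe set used. Which copy a probe set reads was not analysed here.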

How the data were processed

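Of each array the authors deposited 1 table of log2 expression values with 2 decimals, for 28944 probe sets; per the submitters' processing notes, the tools were RMA, Expression Console from Affymetrix and Partek 6.2, in roles not stated. The log base was read from the range (1.4 to 13.5). RMA equalises array distributions, which would hide a global shift. Precision is limited by the number of arrays.

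Gene symbols are those of the platform annotation: 21789 probe sets have 1 symbol, 1621 several and 5534 none, and the last 2 kinds were not used. Per gene the probe set with the highest mean was kept (19938 genes). Differences were taken between arrays and counted past the floor of 4.26. The additive model used limma 3.58.1 under R 4.3.3 (lmFit, eBayes with intensity trend, Benjamini-Hochberg over 11326 genes, threshold 0.05) and tested on simulated data. Gene span and neighbours came from RefSeq (GRCm38.p6). Neighbours were read among protein-coding genes.

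Values on every array are given for catalytic subunits, caps, the inhibitor, genes under the floor or at least 1.5-fold apart, and the 3 highest and 3 lowest by LPS change, genotype difference or difference of LPS change; other genes are summarised by role, with some named for contrast after their values were seen. The members, lists and comparisons were chosen with earlier results of these data known. Alternatives were quantile normalization, removal of intensity and gene span trends by loess, the mean of probe sets, no floor, noise inside the rounding, no trend in eBayes and a 150-base promoter window.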

Additional observations from a re-analysis of the deposited data

Results flagged for a closer look

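The LPS change ran in opposite directions in the labels for the 20S core: its median was below 0 on the arrays labelled Bid-/- and above 0 in WT, a difference of -0.465. The same held, at 1.5-fold or more, for Psmb1 (-0.82), Psmb3 (-0.70), Psmb6 (-0.69), Psmb2 (-0.68) and Psma2 (-0.66). The LPS medians of the cytosolic ribosomal protein genes also had opposite signs, at -0.25 on the arrays labelled Bid-/- and 0.25 in WT. Those of the oxidative phosphorylation genes were -0.375 and 0.20. With 1 array per group none of these differences was tested.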

How the results depend on the processing

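No paired analysis was possible because each group has 1 array and the labels give no replicate number; leaving out an array would leave the fit no residual degrees of freedom. The 20S medians kept their sign in each comparison under all 5 alternatives. For LPS in WT the 20S median was 0.164 after quantile normalization; for LPS on the arrays labelled Bid-/- it was -0.084 with the intensity trend removed and -0.064 with intensity and span trends removed, and between labels with LPS -0.502 after quantile normalization. Removal of the intensity trend moved the median of all genes for LPS on the arrays labelled Bid-/- to 0.0107, from -0.10, so values there are to be read against that. The 19S medians are near 0 and turned: for LPS in WT to 0.02 and 0.025 with intensity, and intensity and span, trends removed; for LPS on the arrays labelled Bid-/- to 0.036 with both removed; and the difference of LPS change to 0.008 after quantile normalization, which also left -0.052 between labels with LPS. The median of all 39 genes for LPS on the arrays labelled Bid-/- was -0.076 with the intensity trend and -0.029 with both trends removed.

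Counts at 0.322 or more moved as follows. Genes lower with LPS in WT were 3 under either trend removal. Under the label Bid-/-, genes lower with LPS were 4 after quantile normalization, 2 with the intensity trend and 0 with both trends removed, and higher ones 2 without a floor (Psmb11 enters). Between labels with LPS, 3 genes were higher after quantile normalization, and 2 for the difference of LPS change. Of 13 single-gene values at least 1.5-fold apart, 8 came under that fold after quantile normalization and 5 with both trends removed, with no change of sign. The limma fit called 0 of the members in each alternative (39 genes, or 41 without a floor), while its calls over all genes for LPS were 0 if no floor was set and 2184 once noise was added inside the rounding, and for genotype 40 after quantile normalization and 26 with that noise, against 0 as reported. In the 150-base promoter window GGGCGG was in 48.6% of the members' windows and 28.62% of all. CCAAT was in 24.3% against 24.5%, TGANNNNGC in 24.3% against 23.03%, and TGACTCAGC in 0.0% against 0.26%. These shares lay within the exact binomial interval of the longer window's share. The shorter window is part of the longer one and cannot hold more matches, so that check says little about stability.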

Other observations

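In 2 places a proteasome gene lies next to a gene whose value under LPS was at least 2-fold the control in both labels. The share of all genes that passed this was not computed, so the 2 cannot be called many or few. Psma6 is followed by Nfkbia, which encodes the NF-kB inhibitor IkBa, at 1.29 with LPS on the arrays labelled Bid-/- and 1.46 in WT, where Psma6 was at 0.04 and 0.41. Psmd3 is followed by Csf3, the granulocyte colony-stimulating factor, at 2.62 and 3.63, where Psmd3 was at 0.01 and 0.21.

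Psmg1 and Psmg2, assembly chaperones of the alpha ring named after their values were seen, had LPS differences of -0.74 and -0.69 on the arrays labelled Bid-/-, where the lowest gene of the core, Psmb1, had -0.47. The other chaperones of this family listed, Psmg3 and Psmg4, had -0.16 and -0.18. Psmg1 read 5.81 and 6.55 with and without LPS on the arrays labelled Bid-/-, and 6.74 and 6.63 on the WT arrays. Psmg2 read 5.34 and 6.03 with and without LPS on the arrays labelled Bid-/-, and 6.16 and 6.05 on the WT arrays. Pomp, which matures the beta ring, read 10.04 and 10.45 with and without LPS on the arrays labelled Bid-/-, and 10.35 and 10.44 on the WT arrays.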
